A study of Danio rerio with 18 samples.

Results

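Expression of the potassium and sodium channel genes was examined in 18 whole zebrafish (Danio rerio) tumours labelled as melanoma. The genes were taken by name: every row of the count table whose gene name starts with kcn, or with scn and a digit, ignoring case and leaving out kcnj13. This rule gave 137 of 27057 genes, of which 123 are potassium channel genes and 14 are sodium channel genes. The 137 genes carry 109 distinct names, because zebrafish often have several copies of a gene that share 1 human-style name, so for shared names the Ensembl identifier is given as well.

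The sox10 tumours (n = 12) came from fish injected with a plasmid in which BRAFV600E, an activated form of the BRAF kinase, is driven by the sox10 promoter, active in neural crest and glia. The mitfa tumours (n = 6) came from fish injected with a plasmid that places the same oncogene behind the mitfa promoter, active in the melanocyte lineage. Both groups were of the Tu line with p53 lost (p53-/-), were injected at the 1-cell stage and were founders, so that a fish is a mosaic of cells with and without the plasmid; tumours were taken from adults when large enough for RNA extraction. The labels number the tumours in each group without giving the number of fish behind them, and p-values therefore measure only the spread among these tumours.

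Potassium channels let potassium leave the cell and hold the resting membrane potential, and voltage-gated sodium channels carry the inward current that starts an action potential in nerve and muscle. Glial cells use inward rectifier potassium channels, above all the product of KCNJ10, to take up the potassium that active neurons release, whereas neurons use many voltage-gated and calcium-activated types to shape firing. Other family members serve muscle contraction, vessel tone or salt transport across epithelia.

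The libraries held between 14973777 and 21191902 reads assigned to genes, and the channel genes took 0.0206% to 0.107% of these. Values are CPM, counts per 1000000 reads of a library size that was first multiplied by its TMM normalisation factor (0.82 to 1.12). They are compared between tumours for 1 gene at a time and not between genes, since transcript lengths were not used. A list of 10 pigment cell marker genes (among them TYR and DCT, enzymes of melanin synthesis) summed to 12.6 to 121 CPM in sox10 tumours and to 4157 to 18138 CPM in mitfa tumours. The pigment markers were thus low in all 12 sox10 tumours despite the melanoma label. A list of 14 glial markers summed to 11673 to 57086 CPM in sox10 tumours and to 167 to 495 CPM in mitfa tumours. In the edgeR test described below, 21.5% of all genes tested were called higher and 22.4% lower. Among tested markers, 13 of 14 glial, 13 of 16 neuronal and 2 of 4 transmitter genes rose. limma called 8 neuronal markers higher and 1 lower, and 1 transmitter gene higher. Sox10 tumours 4 and 7 were the 2 highest for 10 of the 13 risen neuronal markers and for the 2 risen transmitter genes. This held for 455 of all 4024 genes called higher. Markers that fell were 8 of 8 pigment cell, 6 of 9 leukocyte, 3 of 28 muscle, 1 of 9 epidermal, 1 of 5 heart and 1 of 8 vessel genes. The 4 photoreceptor genes and 1 ionocyte gene tested were not called. In whole tumours fewer cells of a type and less RNA per cell cannot be told apart. Sox10 tumours 9 and 10 were known from earlier results of these data as the most similar pair of libraries, and with both summed into 1 library 31 of the 32 channel genes that rose remained called.

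Of the 137 channel genes, 69 had enough reads to be tested and 68 did not. In edgeR's quasi-likelihood test at an adjusted p under 0.05, 32 rose in sox10 tumours, 11 fell and 26 were not called, where 43.9% of all 18731 genes tested were called (21.5% as higher and 22.4% as lower). The share of tested channel genes that were called was 62.3%. A gene that reached the read minimum only through the group in which it is high had to differ, so this share describes the tested genes and not the whole family. The minimum had to be met in 6 tumours, the size of the smaller group. A gene read only in sox10 tumours thus needed 6 of 12, and one read only in mitfa tumours needed all 6. Counts of rises and falls and medians, here and by class or list, can lean towards sox10 tumours for that reason. The estimated change was at least 2-fold for all 43 called channel genes. Among all called genes this held for 3073 of 4024 that rose and 3262 of 4190 that fell. Tested against a minimum of 2-fold, 24 of the 32 risen and 9 of the 11 fallen channel genes remained called. The median log2 fold change over the 69 was 1.37, against -0.03 over all genes tested. For 11 channel genes the lowest sox10 tumour lay above the highest mitfa tumour, and for 3 the highest sox10 tumour lay below the lowest mitfa tumour, where 6.85% and 4.91% of all genes tested did so.

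Leaving out single tumours ended some of these calls, which are named below with the tumours; a call is given as lost also where too few reads were left for a test. limma called 20 of the 32 risen and 10 of the 11 fallen genes, and a fit that takes the percentage of reads outside genes as covariate called 19 and 10 of them. That percentage moved with the group, at 11.1 to 17.4 in sox10 libraries and 9.46 to 12.8 in mitfa libraries, so its part and that of the group cannot be fully told apart. Among the genes lost in both fits were kcnip3a, KCNIP4, KCNT1 (ENSDARG00000104868), kcnn3, KCNH1 (ENSDARG00000024167), KCNA1 (ENSDARG00000062942), KCNG4, SCN10A, SCN2B and KCNJ8. limma also lost KCNC1 (ENSDARG00000051852) and KCND2, and the covariate fit kcnj19a, KCNG1 and KCNK15.

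Of 12 sodium channel genes tested, 7 rose and 0 fell; at an unadjusted p under 0.05 edgeR gave 8 and 0, DESeq2 called 8 and 0, and limma 5 and 0. Of 57 potassium channel genes tested, 25 rose and 11 fell. The shares called were 58.3% of sodium and 63.2% of potassium channel genes, against 43.9% of all genes tested. The tandem-pore channels (KCNK genes) had the lowest median log2 change of the 10 classes, -1.89 over 7 tested genes, of which 4 fell and 2 rose. The sodium alpha subunits, the silent modifiers and the calcium- or sodium-activated channels had medians of 2.44, 2.48 and 2.30 over 6, 3 and 6 tested genes. The share called was 44.4% for auxiliary potassium subunits and 50% for inward rectifiers, near that of all genes tested. It was also 50% for sodium alpha subunits, made up of rises only, where 21.5% of all genes tested were called higher. It was 60% for KCNQ and ether-a-go-go genes and 66.7% for Kv1 to Kv4, calcium- or sodium-activated and sodium beta genes. For tandem-pore genes it was 85.7% and for silent modifiers 100%. Each class had at most 12 tested genes, and no class was tested against all genes.

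**Figure D1:**
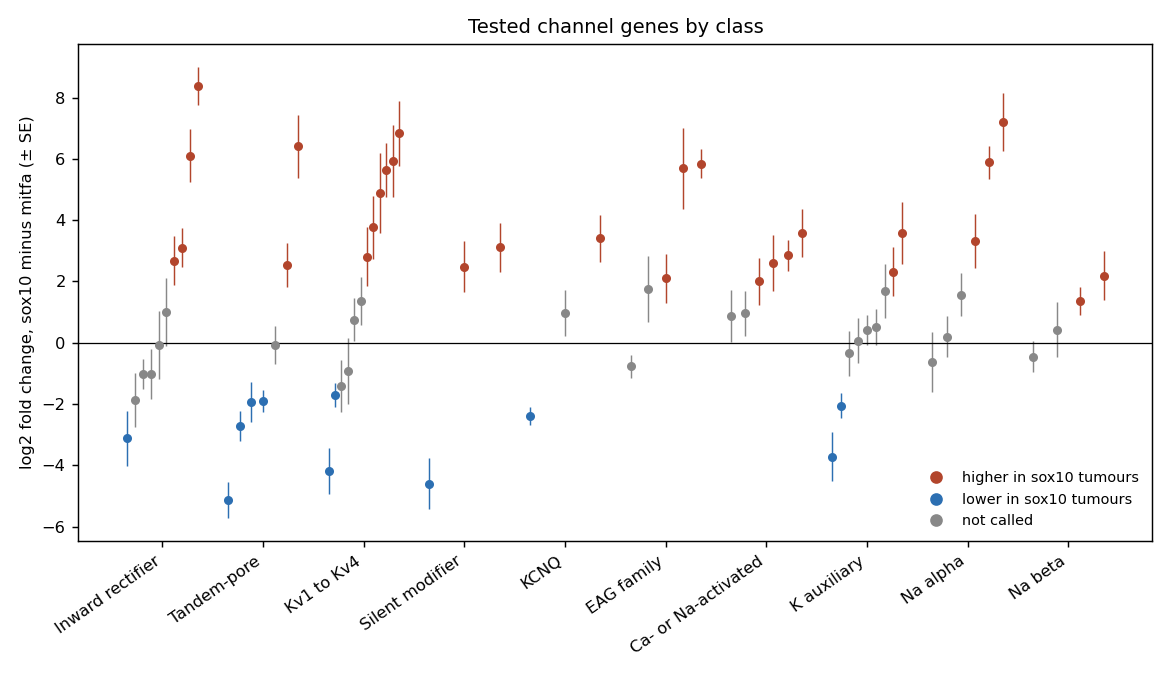
Log2 fold change, sox10 minus mitfa tumours, with its SE (vertical axis) for tested channel genes described here, 1 point per gene, by channel class (horizontal axis); red points were called higher, blue lower and grey not called by edgeR. The highest point is the glial KCNJ10 at 8.38 and the lowest is the tandem-pore gene KCNK6 at -5.14.

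Among the inward rectifiers, and among all tested channel genes, the glial gene KCNJ10 rose furthest. KCNJ10 (ENSDARG00000090815) encodes the potassium channel with which astrocytes, Müller cells and oligodendrocytes take up potassium in mammals. Its level had a lowest, median and highest value of 19.4, 44.1 and 83.5 CPM in sox10 tumours, against 0, 0.106 and 0.340 CPM in mitfa tumours. All 12 sox10 tumours were high, led by tumours 7 and 4 with 83.5 and 60.6 CPM, the 6 mitfa tumours together had 12 reads, and the groups did not overlap. The log2 fold change was 8.38 ± 0.63 (SE, edgeR adjusted p = 6.26e-09). Over the sox10 tumours its highest value was 4.30 times its lowest. This ratio was 4.22 for KCNH5 (ENSDARG00000043220) and between 7.22 and 175 for the other risen channel genes described here. The 175 was that of KCNC1 (ENSDARG00000051852), whose lowest sox10 value was 0.0648 CPM. Where the lowest value rests on so few reads the ratio is imprecise, and it is not like for like with that of KCNJ10.

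The other glial inward rectifier genes were near 0. The second KCNJ10 copy (ENSDARG00000105022) had 33 reads over the 12 sox10 tumours and 0 reads over the 6 mitfa tumours. KCNJ16, whose product pairs with that of KCNJ10 in glia and kidney, had reads in few tumours, with at most 1.27 CPM in sox10 tumours (tumour 1) and at most 0.637 CPM in mitfa tumours (tumour 4). Neither gene had enough reads for a test, so 1 of the 3 glial inward rectifier genes was tested. Reads that fit both KCNJ10 copies may be lost or split between them.

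Of the other inward rectifiers, 3 rose, 1 fell and 5 were tested and not called. kcnj19b had 0.293, 1.69 and 6.64 CPM (lowest, median, highest) in sox10 tumours and 0, 0.0256 and 0.0579 CPM in mitfa tumours. The groups did not overlap, and 514 reads stood against 3, a ratio of 85.0 after scaling to library size (95% exact interval 28.9 to 414; edgeR adjusted p = 1.37e-05). kcnj11l, named after the ATP-sensitive channel gene KCNJ11, had 0.833, 3.15 and 7.92 CPM in sox10 tumours and 0.136, 0.253 and 1.26 CPM in mitfa tumours. Its log2 fold change was 3.10 ± 0.63 (SE, edgeR adjusted p = 0.000581), and mitfa tumour 2 alone reached into the sox10 range. kcnj19a rose by 2.67 (edgeR adjusted p = 0.0110), a call lost without any 1 of sox10 tumours 2, 4, 7, 9, 10 or 12.

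KCNJ8, the pore gene of the ATP-sensitive channel of vascular smooth muscle and pericytes, fell. It had 0, 0.306 and 2.05 CPM in sox10 tumours and 0.0681, 1.15 and 24.3 CPM in mitfa tumours, with a log2 change of -3.12 ± 0.90 (SE, edgeR adjusted p = 0.00842). The value of 24.3 CPM belonged to mitfa tumour 1, followed by 4.20 CPM in mitfa tumour 5, and the other 4 mitfa tumours lay within the sox10 range. Without mitfa tumour 1 the log2 fold change was -1.20 (edgeR adjusted p = 0.243). Vessel marker genes summed to 363 CPM in that tumour, the highest of all 18. Mitfa tumours 5 and 6 had 254 and 256 CPM of vessel markers beside 4.20 and 0.226 CPM of KCNJ8. The part of vessel cells in the result was not tested. KCNJ6, a neuronal G protein-gated channel, had 0, 0.562 and 9.23 CPM in sox10 tumours and 0.170, 0.247 and 4.36 CPM in mitfa tumours (edgeR adjusted p = 0.490).

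Sodium channel alpha subunits form the pore, and 3 of 6 tested genes rose: both SCN8A copies and SCN10A. SCN8A (ENSDARG00000018032), whose mammalian product carries sodium current at nodes of Ranvier and axon initial segments, had 6.14, 26.1 and 49.5 CPM (lowest, median, highest) in sox10 tumours and 0.0663, 0.363 and 1.04 CPM in mitfa tumours. The lowest sox10 tumour (tumour 3) lay above the highest mitfa tumour (tumour 4). The log2 fold change was 5.89 ± 0.54 (SE, edgeR adjusted p = 8.36e-08). The second copy, SCN8A (ENSDARG00000005775), had 2.40, 5.59 and 42.1 CPM in sox10 tumours and 0, 0.0340 and 0.231 CPM in mitfa tumours (log2 fold change 7.19 ± 0.94, SE, edgeR adjusted p = 6.22e-06). The first copy peaked in sox10 tumour 11, where the second had 4.94 CPM, and sox10 tumour 7 was high for both, with 42.4 CPM of the first and 42.1 CPM of the second.

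SCN10A, named for a sodium channel of mammalian sensory neurons, had 0.0595, 0.857 and 3.66 CPM in sox10 tumours and 0, 0.106 and 0.289 CPM in mitfa tumours. It rose by a log2 change of 3.32 ± 0.88 (SE, edgeR adjusted p = 0.00505), with 3 sox10 tumours (2, 9 and 10) inside the mitfa range. scn1lab, a brain sodium channel whose loss causes seizures in zebrafish larvae, had 2.26, 5.35 and 26.9 CPM in sox10 tumours and 0.0681, 1.68 and 6.36 CPM in mitfa tumours. Its groups overlapped, with mitfa tumours 1 and 5 at 6.36 and 5.54 CPM, and it was not called (log2 fold change 1.57 ± 0.69, SE, edgeR adjusted p = 0.0739). scn12aa and scn1laa had too few reads for a test.

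Sodium channel beta subunits, which tune channel gating and also act as cell adhesion proteins, rose in 4 of 6 tested genes. SCN3B, a beta subunit of neurons, had 5.75, 14.3 and 51.0 CPM (lowest, median, highest) in sox10 tumours and 3.81, 5.36 and 14.6 CPM in mitfa tumours, and rose by 1.37 ± 0.46 (SE, edgeR adjusted p = 0.0209) with overlapping groups.

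SCN2B had 0.579, 1.34 and 14.4 CPM in sox10 tumours, the last in tumour 7, and 0.0663, 0.429 and 1.59 CPM in mitfa tumours. It rose by 2.19 ± 0.80 (SE, edgeR adjusted p = 0.0321), a call lost without sox10 tumour 7 (1.42, edgeR adjusted p = 0.0608) and without any 1 of mitfa tumours 1, 2, 3, 4 or 6. The SCN4B copies were not called: SCN4B (ENSDARG00000060319) had 0.684, 2.16 and 4.73 CPM in sox10 tumours and 0.116, 3.23 and 6.56 CPM in mitfa tumours (edgeR adjusted p = 0.498).

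**Figure D2:**
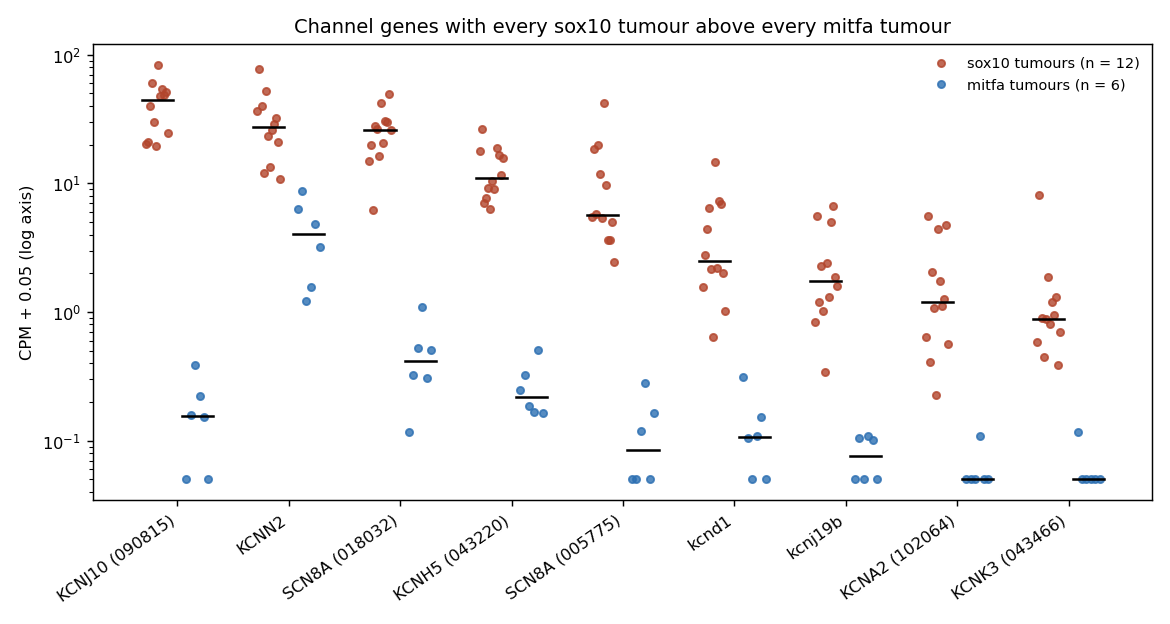
CPM plus 0.05 (vertical log axis) in each of 12 sox10 tumours (left of each pair) and 6 mitfa tumours (right) for 9 channel genes whose groups did not overlap and whose sox10 values were the higher ones; bars mark group medians, and copies are labelled with the last digits of their identifier. The sox10 points of KCNJ10 and KCNH5 lie closest together, with a highest value 4.30 and 4.22 times the lowest.

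Voltage-gated potassium channels of the Kv1 to Kv4 subfamilies (KCNA, KCNB, KCNC and KCND genes), which repolarise neurons after a spike, had 12 tested genes, of which 6 rose and 2 fell. kcnd1, an A-type channel gene, had 0.587, 2.45 and 14.7 CPM (lowest, median, highest) in sox10 tumours and 0, 0.0563 and 0.265 CPM in mitfa tumours, with no overlap (log2 fold change 5.64 ± 0.89, SE, edgeR adjusted p = 4.52e-05). KCNA2 (ENSDARG00000102064), a channel of the juxtaparanodes beside nodes of Ranvier, had 0.176, 1.14 and 5.48 CPM in sox10 tumours and 1 read in all mitfa tumours. Its 387 reads against 1 gave a ratio of 192 (95% exact interval 34.3 to 7606; edgeR adjusted p = 3.43e-05). Each of the 12 sox10 tumours had reads of KCNA2, and the groups did not overlap.

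KCNB2, a delayed rectifier gene, had 0.176, 2.20 and 10.7 CPM in sox10 tumours and reads in 1 mitfa tumour only (tumour 5, 0.308 CPM), with a log2 change of 5.92 ± 1.18 (SE, edgeR adjusted p = 0.000482). KCNB2 was highest in sox10 tumours 9, 2 and 10. KCNC1 (ENSDARG00000051852), a channel of fast-spiking neurons, had 0.0648, 0.779 and 11.3 CPM in sox10 tumours and 0, 0.0273 and 0.289 CPM in mitfa tumours (4.89 ± 1.31, SE, edgeR adjusted p = 0.00521). It was highest in sox10 tumours 7 and 4, at 11.3 and 5.36 CPM, and its call was lost without any 1 of sox10 tumours 2, 4, 5, 6, 7 or 8. KCND2 and KCNA1 (ENSDARG00000062942), an A-type channel and an axonal channel of neurons, rose by 3.76 ± 1.04 and 2.80 ± 0.96 (SE, edgeR adjusted p = 0.00643 and 0.0242). The call of KCNA1 was lost without mitfa tumour 2 or 6, and limma called neither.

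Among the potassium channels kept silent on their own, which join KCNB subunits and alter their gating, 2 of 3 tested genes rose and 1 fell. KCNG1 had 0.0975, 2.85 and 9.26 CPM in sox10 tumours and 0.0566, 0.312 and 0.871 CPM in mitfa tumours, and rose by 3.12 ± 0.80 (SE, edgeR adjusted p = 0.00383). KCNG1 was highest in sox10 tumours 12, 5 and 8, and the fit with reads outside genes as covariate did not call it (2.15, edgeR adjusted p = 0.153). KCNG4 rose by 2.48 ± 0.84 (SE, edgeR adjusted p = 0.0227), highest in sox10 tumour 5 at 5.47 CPM; its call was lost without any 1 of sox10 tumours 3 to 8 or mitfa tumour 6.

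The KCNQ genes, which encode the M-current channels that damp repeated firing, split by member. KCNQ3 had 0.525, 2.05 and 10.3 CPM (lowest, median, highest) in sox10 tumours and 0, 0.148 and 0.868 CPM in mitfa tumours, and rose by 3.41 ± 0.77 (SE, edgeR adjusted p = 0.00137). Mitfa tumour 4, with 0.868 CPM, was the only one to enter the sox10 range of KCNQ3. KCNQ5 fell: it had 1.22, 2.51 and 5.29 CPM in sox10 tumours and 6.28, 14.4 and 25.4 CPM in mitfa tumours, with no overlap and a log2 change of -2.39 ± 0.30 (SE, edgeR adjusted p = 3.95e-06). Its copy kcnq5a was not called (0.97 ± 0.74, SE, edgeR adjusted p = 0.306).

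Of the ether-a-go-go family, voltage-gated potassium channels of neurons and heart, 3 of 5 tested genes rose. KCNH5 (ENSDARG00000043220) had 6.22, 11.04 and 26.3 CPM in sox10 tumours and 0.113, 0.167 and 0.461 CPM in mitfa tumours, with a log2 change of 5.84 ± 0.47 (SE, edgeR adjusted p = 1.32e-08). All 12 sox10 tumours were high, with tumours 2 and 9 at the top. kcnh3 had 0.0975, 1.44 and 11.4 CPM in sox10 tumours and reads in 1 mitfa tumour only (tumour 4, 0.347 CPM), and rose by 5.69 ± 1.32 (SE, edgeR adjusted p = 0.00174). kcnh3 varied widely, with the highest values in sox10 tumours 11, 8 and 2. KCNH1 (ENSDARG00000024167) rose by 2.10 ± 0.80 (SE, edgeR adjusted p = 0.0393), a call lost without any 1 of sox10 tumours 3, 5 or 6 or mitfa tumours 2 to 6.

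Calcium- and sodium-activated channels, which link firing to calcium or sodium entry, rose in 4 of 6 tested genes. KCNN2, a small-conductance calcium-activated channel, had 10.7, 27.4 and 77.2 CPM (lowest, median, highest) in sox10 tumours and 1.16, 3.99 and 8.70 CPM in mitfa tumours. It did not overlap between the groups, was highest in sox10 tumours 2 and 5 and rose by 2.86 ± 0.51 (SE, edgeR adjusted p = 0.000157). kcnn1a had 0.604, 2.21 and 15.7 CPM in sox10 tumours and 0.0663, 0.270 and 0.694 CPM in mitfa tumours, and rose by 3.57 ± 0.78 (SE, edgeR adjusted p = 0.00106). kcnn3 rose by 1.996 ± 0.76 (SE, edgeR adjusted p = 0.0399), a call that did not hold without sox10 tumour 2 (1.37, edgeR adjusted p = 0.0789), nor without any 1 of sox10 tumours 4 or 7 or mitfa tumours 1, 2, 3, 4 or 6. KCNT1 (ENSDARG00000104868), a sodium-activated channel, rose by 2.60 ± 0.91 (SE, edgeR adjusted p = 0.0260), a call lost without any 1 of 9 tumours. KCNMA1, the large-conductance calcium-activated channel, had 0.880, 2.17 and 20.8 CPM in sox10 tumours and 0, 1.45 and 9.81 CPM in mitfa tumours (edgeR adjusted p = 0.420).

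The tandem-pore channels carry background leak current. KCNK6 fell furthest, with 1.15, 2.04 and 5.02 CPM (lowest, median, highest) in sox10 tumours and 6.89, 66.4 and 249 CPM in mitfa tumours, a log2 change of -5.14 ± 0.59 (SE, edgeR adjusted p = 1.20e-06). Within the mitfa group it was uneven: tumours 1 and 5 had 6.89 and 6.97 CPM, tumour 3 had 20.6 CPM, and tumours 6, 4 and 2 had 112, 120 and 249 CPM. Every sox10 tumour still lay below every mitfa tumour. KCNK5 encodes an acid-sensitive leak channel of transporting epithelia, and both copies fell. KCNK5 (ENSDARG00000012390) had 1.38, 3.50 and 15.4 CPM in sox10 tumours and 12.05, 21.7 and 73.3 CPM in mitfa tumours (-2.73 ± 0.48, SE, edgeR adjusted p = 0.000157). KCNK5 (ENSDARG00000023587) had 0.535, 0.980 and 2.87 CPM in sox10 tumours and 3.49, 4.98 and 6.90 CPM in mitfa tumours, without overlap (-1.89 ± 0.36, SE, edgeR adjusted p = 0.000323). kcnk1a fell by 1.94 on the log2 scale (edgeR adjusted p = 0.0222), a call lost without mitfa tumour 2 or 4.

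In the same class KCNK3 (ENSDARG00000043466), an acid-sensitive leak channel of neurons, had 296 reads in sox10 tumours and 1 in mitfa tumours, a ratio of 147 (95% exact interval 26.2 to 5822; edgeR adjusted p = 5.71e-05). Sox10 tumour 2 had 8.09 CPM of KCNK3 and the other 11 between 0.339 and 1.82 CPM. KCNK15 rose by 2.53 ± 0.71 (SE, edgeR adjusted p = 0.00713).

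The remaining genes that fell were spread over 3 classes. kcnc4, a Kv3 channel gene, had 0.0975, 0.719 and 2.71 CPM in sox10 tumours and 0.0663, 14.1 and 45.3 CPM in mitfa tumours (-4.19 ± 0.74, SE, edgeR adjusted p = 0.000148). KCNG2, a silent modifier, had 0, 0.281 and 2.54 CPM in sox10 tumours and 0.729, 7.04 and 25.8 CPM in mitfa tumours (-4.60 ± 0.83, SE, edgeR adjusted p = 0.000180). Mitfa tumours 1 and 5 were the lowest of their group for both, as for KCNK6, KCNK5 (ENSDARG00000012390), kcnk1a, kcnip3b and kcnb2a. kcnip3b, a calcium-binding auxiliary subunit of Kv4 channels, had 0, 0.320 and 4.51 CPM in sox10 tumours and 0.718, 9.84 and 21.6 CPM in mitfa tumours, with 1.72 and 0.718 CPM in mitfa tumours 1 and 5 (-3.72 ± 0.81, SE, edgeR adjusted p = 0.00103). kcnb2a fell by 1.71 on the log2 scale (edgeR adjusted p = 0.00120). It had 0.654, 1.05 and 2.36 CPM in sox10 tumours and 0.974, 3.95 and 8.09 CPM in mitfa tumours.

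KCNE4, an auxiliary subunit that inhibits KCNQ1 and Kv1 channels in mammalian cells, fell as well, with other mitfa tumours at the top. It had 0.684, 1.94 and 3.52 CPM in sox10 tumours and 2.72, 9.07 and 15.8 CPM in mitfa tumours (-2.06 ± 0.40, SE, edgeR adjusted p = 0.000399). Mitfa tumours 1, 2 and 5 had 13.5, 15.8 and 13.3 CPM, and tumours 3, 4 and 6 had 2.72 to 4.86 CPM. Epidermal markers summed to 466 and 594 CPM in mitfa tumours 1 and 5 and to 1852 to 5646 CPM in the other 4, and to 16.1 to 2237 CPM in sox10 tumours. Sox10 tumour 6 held 2237 CPM of epidermal markers and 2.29 CPM of KCNK6. The part of epidermal cells in these results was not tested. Without mitfa tumours 1 and 5, 10 of the 11 fallen genes remained called, all but KCNJ8. Those tumours had the lowest mitfa values of most fallen genes and the highest of KCNJ8. Leaving them out therefore favours this outcome, and the fit is no check on these falls.

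**Figure D3:**
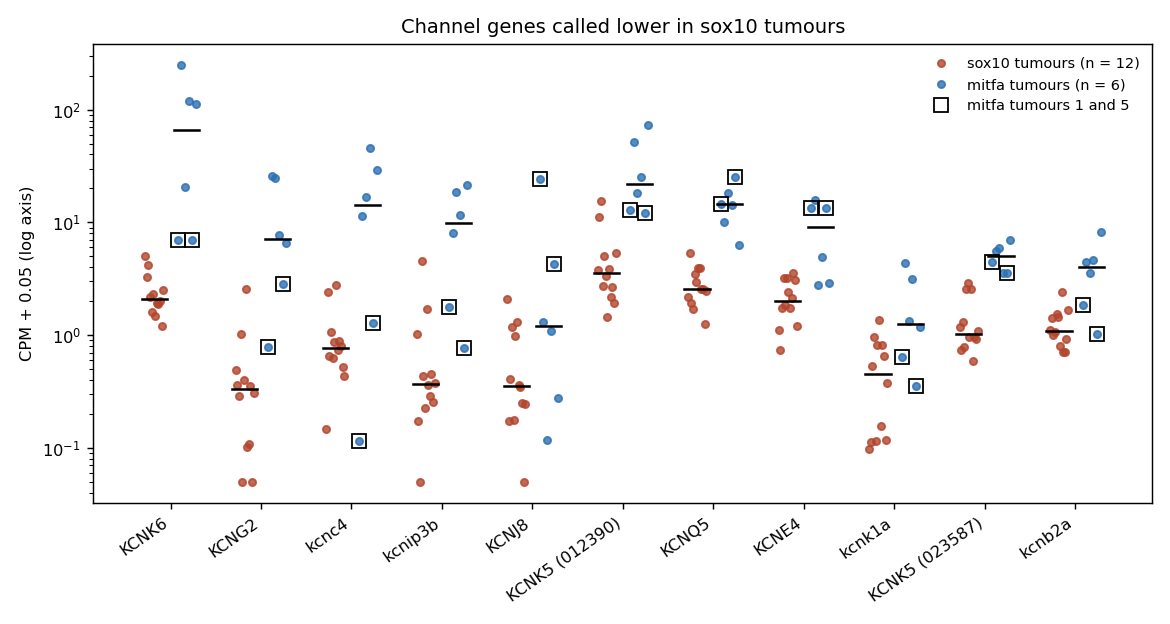
CPM plus 0.05 (vertical log axis) in 12 sox10 tumours (left of each pair) and 6 mitfa tumours (right) for the 11 channel genes called lower, with group medians as bars and mitfa tumours 1 and 5 in squares. KCNK6, KCNG2, kcnc4, kcnip3b, KCNK5 (ENSDARG00000012390), kcnk1a and kcnb2a have their lowest mitfa values in the squares, and KCNJ8 its highest.

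The other auxiliary subunits changed in few cases. kcnip3a, the copy of kcnip3b, rose by 3.59 ± 1.02 (SE, edgeR adjusted p = 0.00776). It was not called by limma (2.20, adjusted p = 0.128) or with reads outside genes as covariate (2.68, edgeR adjusted p = 0.151). It had 0.203, 0.653 and 11.6 CPM in sox10 tumours, with 8.84 and 11.6 CPM in tumours 4 and 7 and at most 1.79 CPM in the others, and 0.0681, 0.179 and 0.289 CPM in mitfa tumours. KCNIP4 rose by 2.32 ± 0.80 (SE, edgeR adjusted p = 0.0237), a call lost without mitfa tumour 1 or 2. The 5 tested auxiliary genes that were not called were KCNAB3, KCNMB2 (ENSDARG00000001712), kcnab2a, kcnip1b and KCNAB2.

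Grouped by the tissue they are known from, the channel genes fell into a neuronal, a muscle and a glial list and a rest. The neuronal list held 41 of the channel genes, of which 24 were tested, 15 rose and 2 fell (kcnb2a and KCNQ5), with a median log2 change of 2.70. The muscle list held 16, of which 8 were tested, 1 rose (kcnj11l) and 0 fell, with a median of -0.89; at an unadjusted p under 0.05 edgeR gave 1 and 2, and DESeq2 and limma each called 1 and 0. Of the 77 channel genes in neither list nor the glial one, 36 were tested, 15 rose and 9 fell, with a median of 0.69. The shares called were 70.8% in the neuronal list, 12.5% in the muscle list and 66.7% in the rest, against 43.9% of all genes tested. The difference between the lists was not tested. Their counts and medians cover tested genes only, and the read minimum more easily admits genes high in sox10 tumours.

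The level of the risen genes was uneven over the sox10 tumours. Sox10 tumour 7 held the highest value of 15 of the 32 risen channel genes (46.9%), against 934 of all 4024 genes called higher (23.2%). Sox10 tumours 4 and 7 were the 2 highest for 11 of the 32 (34.4%), against 455 of the 4024 (11.3%). Sox10 tumour 2 held the highest value of 7, among them KCNN2, KCNH5 and KCNK3, and sox10 tumour 11 of 5. Neuronal markers summed to 1231 and 1490 CPM in sox10 tumours 4 and 7 and to 427 to 802 CPM in the other 10, against 19.4 to 44.3 CPM in mitfa tumours. Markers of transmitter-using neurons summed to 198 and 452 CPM in sox10 tumours 4 and 7 and to no more than 55.6 CPM in the 10 others, against 1.43 to 179 CPM in mitfa tumours.

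Without sox10 tumours 4 and 7, which were left out with their high neuronal values known, 20 of the 32 risen genes remained called, and 7 of the 12 lost had too few reads left for a test. In that fit 18.8% of all 18389 genes tested were called higher, against 21.5% with all 18 tumours. All 11 fallen channel genes remained called. Tumour 4 or 7 had the highest sox10 value of KCNG2, kcnc4 and kcnip3b, so leaving both out favours this outcome for these genes. Among the 12 risen genes lost were kcnip3a, KCNIP4, KCNT1 (ENSDARG00000104868), kcnn3, KCNH1 (ENSDARG00000024167), kcnj19a, KCNC1 (ENSDARG00000051852), KCNA1 (ENSDARG00000062942), KCNG4, SCN10A and SCN2B. Those that remained include KCNJ10, both SCN8A copies, KCNN2 and KCNH5. The part of neuronal cells in tumours 4 and 7 in the values of these 12 genes was not tested.

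**Figure D4:**
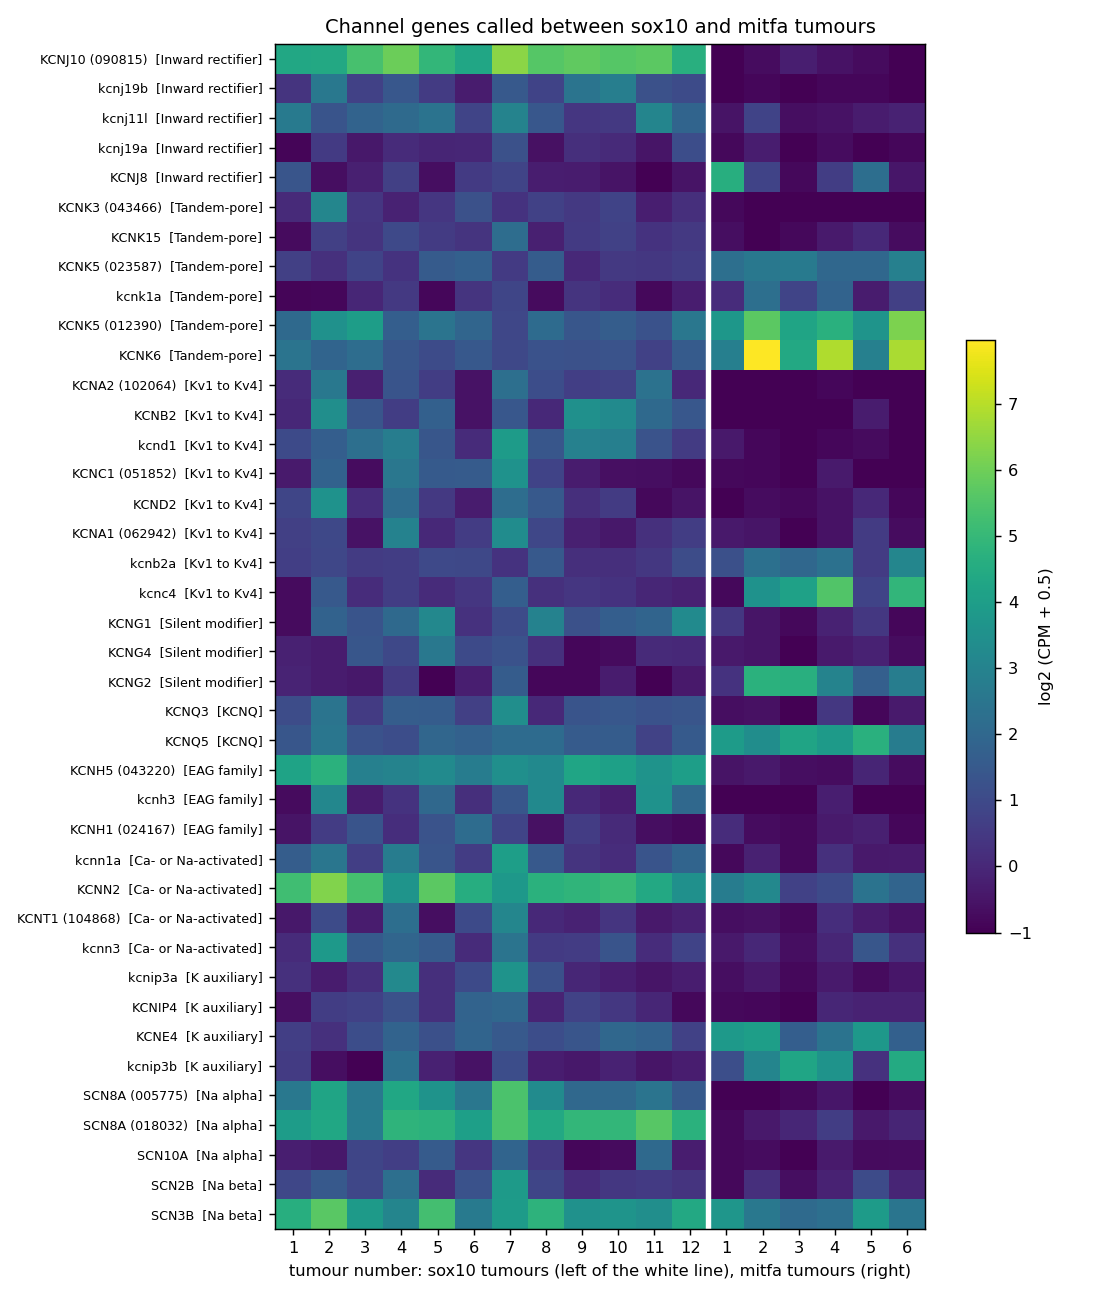
Level of called channel genes (rows, by class) in each tumour (columns, 12 sox10 tumours left of the white line and 6 mitfa tumours right of it), as log2(CPM + 0.5). Sox10 tumours 4 and 7 hold both top values for genes such as KCNC1 (ENSDARG00000051852) and kcnip3a, and KCNJ10 and KCNH5 are high in all 12 sox10 tumours.

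Of the 8 muscle channel genes tested, all but kcnj11l were not called, and 8 others were not tested. Without a read filter 2 genes of the muscle list were called lower. Levels of the tested genes ran over wide ranges within each group. scn4ab, the skeletal muscle sodium channel, had 16.4, 38.8 and 453 CPM (lowest, median, highest) in sox10 tumours and 14.9, 70.8 and 180 CPM in mitfa tumours, with a log2 change of 0.20 ± 0.67 (SE, edgeR adjusted p = 0.832). The groups overlapped almost fully, and the highest values were in sox10 tumour 8, mitfa tumour 1 and sox10 tumour 3. kcnj12b, an inward rectifier of muscle, had 0.0602, 0.499 and 2.79 CPM in sox10 tumours and 0, 1.62 and 11.2 CPM in mitfa tumours (-1.87 ± 0.88, SE, edgeR adjusted p = 0.0923). kcnj11, of the ATP-sensitive channel, and kcna7, a muscle Kv1 channel, had up to 7.43 and 6.31 CPM, both in mitfa tumour 5.

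Muscle markers ran over a wide range in both groups, from 46.4 to 16996 CPM in sox10 tumours and from 55.9 to 35053 CPM in mitfa tumours. Mitfa tumour 5, with 35053 CPM of muscle markers, was also the highest for kcnj12b, kcnj11 and kcna7, and in the 4 sox10 tumours with under 70 CPM of muscle markers kcna7 reached at most 0.129 CPM. scn4ab did not follow the markers: sox10 tumour 3 had 164 CPM of scn4ab beside 104 CPM of muscle markers, and mitfa tumour 5 had 68.0 CPM. The fixed rule named scn4ab, and kcnj12b, kcnj11 and kcna7 were named after their values were seen. All 4 were set beside the muscle markers with their values known. With a muscle score as covariate 26 of the 32 risen and all 11 fallen channel genes remained called.

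**Figure D5:**
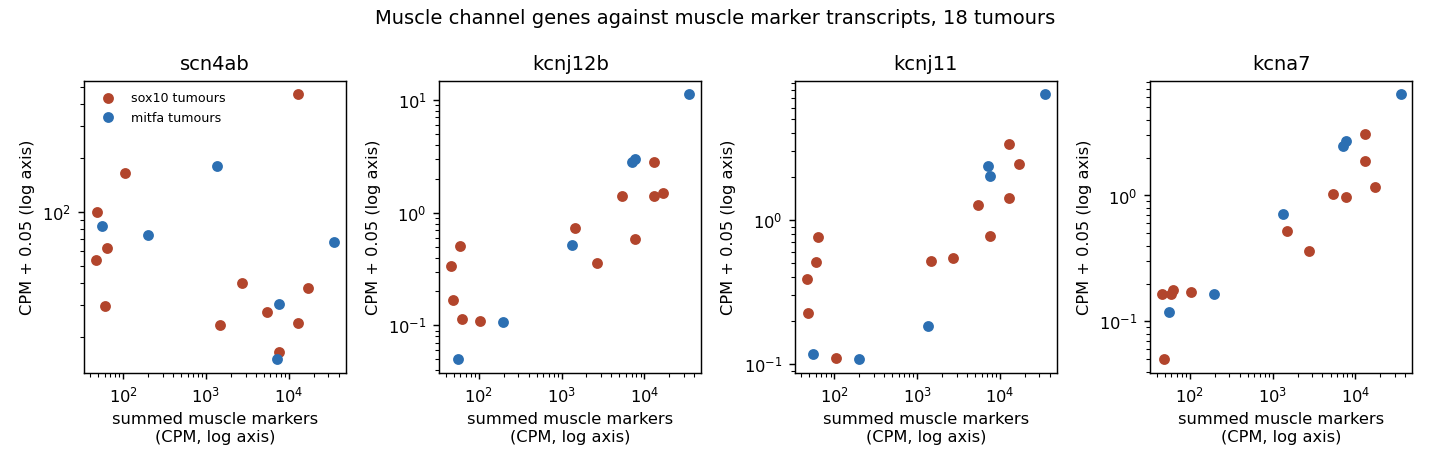
CPM plus 0.05 of scn4ab, kcnj12b, kcnj11 and kcna7 (vertical log axes) against the summed CPM of muscle markers (horizontal log axis) in 12 sox10 tumours (red) and 6 mitfa tumours (blue). kcnj12b, kcnj11 and kcna7 are highest in the mitfa tumour with 35053 CPM of muscle markers, and scn4ab is highest in a sox10 tumour with 13012 CPM.

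Genes that work beside the channels were taken from 4 further lists. Of 22 genes of glial potassium and glutamate handling, 17 were tested, 7 rose and 3 fell. The share called was 58.8%, against 43.9% of all genes tested. HEPACAM, a glial adhesion protein, had 87.8, 129 and 270 CPM (lowest, median, highest) in sox10 tumours and 0.109, 0.283 and 1.504 CPM in mitfa tumours (log2 fold change 8.17 ± 0.56, SE, edgeR adjusted p = 1.60e-09). SLC1A2 (ENSDARG00000102453), the glial glutamate transporter, had 92.5, 512 and 1342 CPM in sox10 tumours and 0.679, 0.950 and 1.37 CPM in mitfa tumours (9.24 ± 0.71, SE, edgeR adjusted p = 7.85e-09). Neither overlapped between the groups, like KCNJ10. AQP4, the water channel of astrocyte endfeet, had at most 0.542 CPM in sox10 tumours and at most 0.711 CPM in mitfa tumours and was not tested. The 3 that fell were gja1a and GJB6, which encode connexins, and slc12a2, a sodium, potassium and chloride cotransporter.

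A list of 18 genes covered the node of Ranvier and axon initial segment, the sites where SCN8A and KCNA2 channels are held in mammals. Of these, 17 were tested, 8 rose and 0 fell. The share called was thus 47.1%, made up of rises only. Of all genes tested, 21.5% were called higher and 43.9% were called in either direction. For 6 of the 17 the lowest sox10 value exceeded the highest mitfa value, against 6.85% of all genes tested. The list was not tested against all genes. At an unadjusted p under 0.05 edgeR gave 10 and 0. DESeq2 called 10 and 0, and limma 9 and 0. sptbn4a, a spectrin that anchors channels, had 1410 reads in sox10 tumours and 3 in mitfa tumours, a ratio of 233 (95% exact interval 79.7 to 1130; edgeR adjusted p = 1.39e-06). ank2a, an ankyrin, had 4.24, 18.9 and 46.1 CPM in sox10 tumours and 0.0663, 0.279 and 0.871 CPM in mitfa tumours (5.94 ± 0.73, SE, edgeR adjusted p = 3.00e-06). NFASC, the adhesion protein neurofascin, had 3.61, 72.2 and 244 CPM in sox10 tumours and 0.0663, 0.782 and 1.97 CPM in mitfa tumours (6.93 ± 0.99, SE, edgeR adjusted p = 1.68e-05). All 3 were without overlap. cntnap1, of the paranodal junction between axon and myelin, was not called (1.66 ± 1.02, SE, edgeR adjusted p = 0.197).

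Of 21 further channel partners, 15 were tested, 9 rose and 2 fell (AMIGO1 and HCN4, ENSDARG00000074419), a share called of 73.3% against 43.9% of all genes tested. With 1 tumour left out in turn, 1 of these falls was no longer called in 15 of 18 fits, and DESeq2 and limma called 1 of the 2 as well. lgi1b, a secreted partner of Kv1 channels, had 6.50, 29.5 and 92.8 CPM in sox10 tumours and 0.974, 1.53 and 2.85 CPM in mitfa tumours (4.29 ± 0.61, SE, edgeR adjusted p = 1.46e-05). FGF12, an intracellular modulator of sodium channels, had 2.57, 5.86 and 16.1 CPM in sox10 tumours and 0, 0.136 and 0.694 CPM in mitfa tumours (5.09 ± 0.77, SE, edgeR adjusted p = 2.81e-05). Both kept the groups apart. Of 15 genes of the sodium-potassium pump, which restores the gradients that the channels spend, 10 were tested, 1 rose and 2 fell. The share called was 30%, below that of all genes tested.

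The 68 channel genes that were not tested each had reads in some tumour, and 34 of them reached at least 1 CPM in at least 1 tumour. Only 2 reached 10 CPM. KCNJ3 (ENSDARG00000062217), a G protein-gated channel of heart atrium and brain, had 11.4 and 4.62 CPM in sox10 tumours 7 and 4, and 133 CPM in mitfa tumour 5. Heart markers summed to 238 CPM in mitfa tumour 5 and to no more than 44.9 CPM in the remaining mitfa tumours. In sox10 tumours 7 and 4 they summed to 14.02 and 17.5 CPM. Their highest sox10 sum was 115 CPM in tumour 10, beside 0.151 CPM of KCNJ3. Markers of transmitter-using neurons summed to 452, 198 and 179 CPM in sox10 tumours 7 and 4 and mitfa tumour 5. These neuronal markers also summed to 146 CPM in mitfa tumour 1, beside 0.0663 CPM of KCNJ3. The part of heart tissue or of neurons was not tested. kcnc3a, a Kv3 channel gene, had 10.4 and 16.3 CPM in sox10 tumours 4 and 7, at most 0.821 CPM in the other sox10 tumours and at most 0.0663 CPM in mitfa tumours. Of the KCNJ1 copies, kidney and ionocyte channels, KCNJ1 (ENSDARG00000091232) was tested and had 8.58 CPM in sox10 tumour 1 and 4.16 CPM in mitfa tumour 2, with a log2 change of -0.08 ± 1.12 (SE, edgeR adjusted p = 0.962).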

How the data were processed

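Whole tumours were extracted with Trizol and sequenced from Illumina libraries, per the labels' protocols. The submitters' processing notes name FastQC, Trimmomatic, STAR, DESeq2 and the build GRCz10, without versions or roles; which annotation release and strand setting were used is not given in the sources used here. Raw read counts were deposited by the authors for 27057 Ensembl genes in 18 libraries. Entries that name no gene held 19.9% to 30.1% of reads per library, including 9.46% to 17.4% outside genes and 1.94% to 3.08% with several map positions, and were left out of library sizes and tests. Reads of near-identical copies and of overlapping genes may be lost or split. A reference table named 24020 genes.

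Genes passing filterByExpr (count minimum 10, total minimum 15), 18731 in all, were fitted with edgeR 4.0.16 in R 4.3.3 (TMM factors, robust quasi-likelihood F test, no covariate). A gene was called at a Benjamini-Hochberg adjusted p under 0.05, adjusted across all tested genes. Log2 fold changes give sox10 over mitfa tumours; dividing one by the root of its F statistic gave its standard error. Read ratios, for genes with 1 to 3 reads in the mitfa group, are scaled to library size with 95% exact binomial intervals that cover counting error only.

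The channel genes and the 18 lists were chosen with earlier results of these data known. Of 205 names in the lists, 178 were matched. The rule named every KCNJ10 and KCNJ16 copy; in each class up to 4 genes called higher and 3 called lower with the largest changes among those with a mean of at least 1 CPM, and the gene not called with the highest mean; and in each partner list the 2 called genes with the smallest adjusted p. It gave 51 genes, of which 43 are channel genes. Other called channel genes are named too, and some genes of the lists are not reported here. KCNJ3, kcnc3a, kcnj12b, kcnj11, kcna7, NFASC, AQP4 and the other genes outside the rule were named after their values were seen. Alternatives were DESeq2 1.42.0, limma 3.58.1 with quality weights, other scaling factors and filters, a minimum fold change of 2, a replicate block, a muscle score or the percentage of reads outside genes as covariate, sox10 tumours 9 and 10 summed, and tumours left out.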

Additional observations from a re-analysis of the deposited data

Results flagged for a closer look

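A tumour's distance from the nearest other tumour of its group, on the log2(CPM + 0.5) scale, was divided by the range of the group. The tumour was singled out where this ratio exceeded the 95% critical value of Dixon's test for 6 tumours. The named genes were examined in the mitfa group, and chance alone gives such a gap in about 1 in 20 groups of continuous values. This rate does not hold for KCNJ16, kcnh3, KCNA2 and KCNB2, since any reads in a single tumour, with 0 in the others, meet the criterion. It is given here for 7 channel genes. In mitfa tumour 4, KCNJ16 had 0.637 CPM and kcnh3 0.347 CPM, where the other 5 mitfa tumours had 0 reads of either. KCNA2 (ENSDARG00000102064) had 0.0579 CPM there, which is 1 read, and 0 in the others, and KCNC1 (ENSDARG00000051852) had 0.289 CPM against at most 0.0663 CPM. In mitfa tumour 2, kcnj11l had 1.26 CPM against 0.136 to 0.396 CPM in the others. In mitfa tumour 5, KCNJ6 had 4.36 CPM against 0.170 to 0.602 CPM, and KCNB2 had 0.308 CPM against 0. Most of these values rest on few reads.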

How the results depend on the processing

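Fits in which a named gene had too few reads for a test are left out of the next counts, though given above as lost calls. Of the log2 fold changes of named genes recomputed under the alternatives, 1500 kept their direction and call, 59 kept the direction and lost the call, 2 gained one and 18 changed sign. All 18 belong to genes that were not called: kcnip1b (-0.060 with the muscle score, -0.49 without mitfa tumours 1 and 5, -0.49 without sox10 tumours 4 and 7), KCNJ6 (-0.76 with the muscle score), scn4ab (-0.10 in tumours 1 to 6), SCN4B (ENSDARG00000060319; 0.36 in limma, 0.20 without mitfa tumours 1 and 5) and KCNK1. With 1 tumour left out, kcnip1b ranged between -0.36 and 0.67, scn4ab between -0.51 (without sox10 tumour 8) and 0.67, and KCNK1 between -0.53 and 0.35. RLE or upper quartile factors and dispersion without robust estimation kept every count of called channel genes within 1.5 times. The causes of the changes below were not tested, beyond fewer tumours or genes where the setting says so.

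DESeq2 called 1 channel partner lower and 2 pump genes higher. A filter of 1 CPM in 6 tumours left 1 auxiliary, 1 KCNQ, 1 silent modifier and 0 tandem-pore genes higher, and 1 partner lower. Without a filter, 2 glial inward rectifiers and 4 tandem-pore genes were higher, and 1 calcium- or sodium-activated, 3 inward rectifier, 2 KCNQ, 2 silent modifier and 2 muscle list genes and 1 partner lower. limma called 0 auxiliary, 2 calcium- or sodium-activated, 1 silent modifier and 2 beta subunit genes higher, and 0 inward rectifiers and 1 partner lower. A minimum of 2-fold left 1912 of all genes higher and 1707 lower, with 1 auxiliary, 2 calcium- or sodium-activated, 1 silent modifier, 2 beta subunit and 4 glial handling genes higher, and 1 Kv1 to Kv4, 1 neuronal list, 1 partner and 0 pump genes lower. With the muscle score 1 auxiliary, 1 silent modifier and 2 pump genes were higher. With the percentage of reads outside genes 2432 of all genes were higher and 2489 lower. Then 19 channel genes were higher, among them 0 auxiliary, 2 calcium- or sodium-activated, 0 silent modifier, 2 beta subunit and 1 tandem-pore, and 4 glial handling genes. Lower were 1 ether-a-go-go, 0 inward rectifier, 1 muscle list, 0 partner and 0 pump genes. With sox10 tumours 9 and 10 summed 1 partner was lower.

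Same-numbered tumours of the groups did not deviate together (correlations of -0.308 to 0.172), and 1 of 6 mitfa tumours correlated best with its own number. The labels do not say whether same-numbered tumours were handled together, and these correlations cannot decide it. With the replicate block in tumours 1 to 6, 2279 of all genes were higher and 2216 lower, with 12 channel genes higher and 7 lower. Of the 32 channel genes risen with all 18 tumours, 11 remained called and 18 had too few reads for a test. All 11 fallen genes were tested, and 7 remained called. Higher under the replicate block were 1 auxiliary, 2 calcium- or sodium-activated, 1 ether-a-go-go, 2 inward rectifier, 1 KCNQ, 1 Kv1 to Kv4, 0 silent modifier, 2 beta subunit, 0 tandem-pore and 6 neuronal list genes, and lower were 0 auxiliary, 0 inward rectifier, 1 Kv1 to Kv4, 1 neuronal list, 0 partner and 0 pump genes. KCNG1 (2.84, edgeR adjusted p = 0.0708) and kcnip3b (-3.75, edgeR adjusted p = 0.0905) were not called under the replicate block. The same 12 tumours with no block, a fit chosen after seeing the data, gave 2539 of all genes and 13 channel genes higher. Here too 18 of the 32 risen channel genes had too few reads for a test. Higher were 0 auxiliary, 1 ether-a-go-go, 2 inward rectifier, 1 KCNQ, 1 Kv1 to Kv4, 1 silent modifier, 2 beta subunit, 0 tandem-pore and 6 neuronal list genes, and lower were 1 ether-a-go-go, 0 inward rectifier, 1 muscle list, 1 partner and 1 pump gene.

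Without mitfa tumours 1 and 5, 1 auxiliary gene was higher and 1 muscle list and 1 pump gene lower. Without sox10 tumours 4 and 7, 20 channel genes were higher, with 0 auxiliary, 2 calcium- or sodium-activated, 1 silent modifier and 2 beta subunit genes, and 2 pump genes higher and 1 partner lower. With each of the 18 tumours left out in turn, 26 to 34 channel genes were higher and 11 to 12 lower. The ranges that left 1.5 times the count were 1 to 2 auxiliary, 2 to 4 calcium- or sodium-activated, 1 to 2 silent modifier and 1 to 3 pump genes higher, and 1 to 2 inward rectifier, 0 to 1 muscle list, 1 to 2 partner (1 in 15 of 18 fits) and 1 to 3 pump genes lower. For the 68 genes not tested too few tumours reached the read minimum, also where single tumours had many reads, as for KCNJ3 (ENSDARG00000062217). The mitfa libraries held at least 15504701 reads in genes, so levels far under 1 CPM rest on few reads.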
